A study of Mus musculus with 8 samples.

Results

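The 9 genes described here encode the vitamin D receptor (Vdr), the enzymes that make and break down its ligand (Cyp27b1 and Cyp24a1), the retinoid X receptors Rxra and Rxrb, the retinoic acid receptors Rara, Rarb and Rarg, and the glucocorticoid receptor (Nr3c1). They were chosen by symbol from the 47706 rows of the deposited count table, each had 1 row there, and 8 of the 9 passed the filter on low counts. RNA was sequenced from 8 cultures of primary calvarial osteoblasts, the bone-forming cells of the skullcap, taken from newborn mice, of which 4 received parathyroid hormone (PTH) and 4 received vehicle for 24 hours after 7 days of differentiation. The study's methods describe osteogenic medium and 6 hours of starvation in 0.1% serum on day 7, whereas the sample labels name adipogenic differentiation. The titles of all 8 samples begin with Con, both treatments share the same cell source, and the labels give no strain, genotype or sex. Total counts lay between 33605610 and 56090654 per sample. As a check of the labels, Tnfsf11, which encodes the osteoclast-inducing cytokine RANKL and is a textbook PTH target in osteoblasts, was at 1.42 ± 0.365 CPM (read counts scaled to the TMM-normalized library size) with vehicle and 128 ± 20.0 CPM with PTH (mean ± SD, n = 4 per treatment, as for all values below), and the PTH receptor gene Pth1r was at 136 ± 21.1 and 83.6 ± 11.6 CPM.

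Calcitriol, the active form of vitamin D, is made from its circulating precursor by the hydroxylase that Cyp27b1 encodes, binds VDR, and is inactivated by the hydroxylase that Cyp24a1 encodes. VDR and the retinoic acid receptors bind DNA as partners of the retinoid X receptors, so that these families draw on a common pool of RXR. In bone, VDR in osteoblasts raises RANKL, osteopontin and FGF23, and retinoic acid and glucocorticoids, the latter through the receptor encoded by Nr3c1, alter the differentiation of osteoblasts.

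The promoter of Vdr is shown because Vdr changed most of the tested genes of this axis that were expressed in every culture, and that of Rarb because it holds the arrangement of half-sites known as a retinoic acid response element. Both are RefSeq windows on GRCm38.p6 running from 250 bases before to 50 bases after a transcription start. The Vdr window lies on the minus strand at chr15:97908247-97908546, with 3 GC boxes (GGGCGG on either strand) in capitals, and the Rarb window lies on the minus strand at chr14:16575427-16575726, with 1 pair of half-sites, GGTTCA and AGTTCA with a spacer of 5 bases, in capitals together with the spacer.
Vdr: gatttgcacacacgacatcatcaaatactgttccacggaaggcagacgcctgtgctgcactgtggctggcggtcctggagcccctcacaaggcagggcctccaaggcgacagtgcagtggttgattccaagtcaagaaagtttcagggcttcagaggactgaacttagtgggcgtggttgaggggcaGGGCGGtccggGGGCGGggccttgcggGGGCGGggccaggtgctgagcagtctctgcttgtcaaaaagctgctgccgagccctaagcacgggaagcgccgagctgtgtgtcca
Rarb: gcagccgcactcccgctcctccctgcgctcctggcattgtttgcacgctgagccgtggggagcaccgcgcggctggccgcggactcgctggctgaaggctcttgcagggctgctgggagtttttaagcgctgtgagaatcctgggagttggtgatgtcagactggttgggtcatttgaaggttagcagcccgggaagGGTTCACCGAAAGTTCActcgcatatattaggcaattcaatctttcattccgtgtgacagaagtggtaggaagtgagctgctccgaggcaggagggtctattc
The GC boxes of Vdr begin 63, 52 and 36 bases before its start, and the half-site pair of Rarb begins 53 bases before its start. In the RefSeq table, 7 of the 9 genes had 13 windows that were searched on both strands; no window of Cyp24a1 or Nr3c1 was searched. GC boxes were in 8 of these 13 windows (Rxra, Rara, Vdr, Rarg and Rxrb) and in 35.7% of all 32851 windows. The half-site pair of Rarb was in 2 of the 32851 windows (0.00609%). The cAMP response element TGACGTCA, which binds the transcription factor CREB that acts below the PTH receptor, was in none of the 13 windows and in 1.79% of all windows, and its shorter core TGACG, which is also part of the full element, was in 3 of the 13 (Rara and Rxrb) and in 20.8% of all. None of the 13 windows held a pair of AGGTCA, a pair of AGTTCA, or AGGTGA followed by AGGGCG, each with a spacer of 3 bases (2, 0 and 0 of all windows), a pair of AGGTCA with a spacer of 5 bases (3 of all windows), or AGAACA and TGTTCT with a spacer of 3 bases (3 of all windows).

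PTH raised Vdr 48.6-fold and brought Cyp24a1 from no counts to a low level, while Rxra, Rxrb, Rara, Rarg and Nr3c1 fell to between 0.498 and 0.728 of their vehicle level. Of the 8 genes tested, 2 were upregulated, 5 were downregulated and 1, Rarb, did not pass (edgeR quasi-likelihood test, Benjamini-Hochberg adjusted p under 0.05 over all 16736 tested genes). Over all tested genes 45.8% were called (23.3% upregulated and 22.5% downregulated), and the median log2 fold change was -0.000814. The 4 PTH cultures lay wholly on one side of the 4 vehicle cultures in 7 of the 8 genes, against 43.0% of all tested genes, and each of these 7 had an exact two-sided permutation p of 0.0286 on log2(CPM + 0.1), the smallest that the 70 assignments of 4 and 4 cultures allow. Cyp24a1 is among the 2 upregulated and these 7 genes, but it passed the filter on low counts only through its PTH cultures. In bulk RNA, fewer cells of a type and less RNA per cell cannot be told apart.

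**Figure D1:**
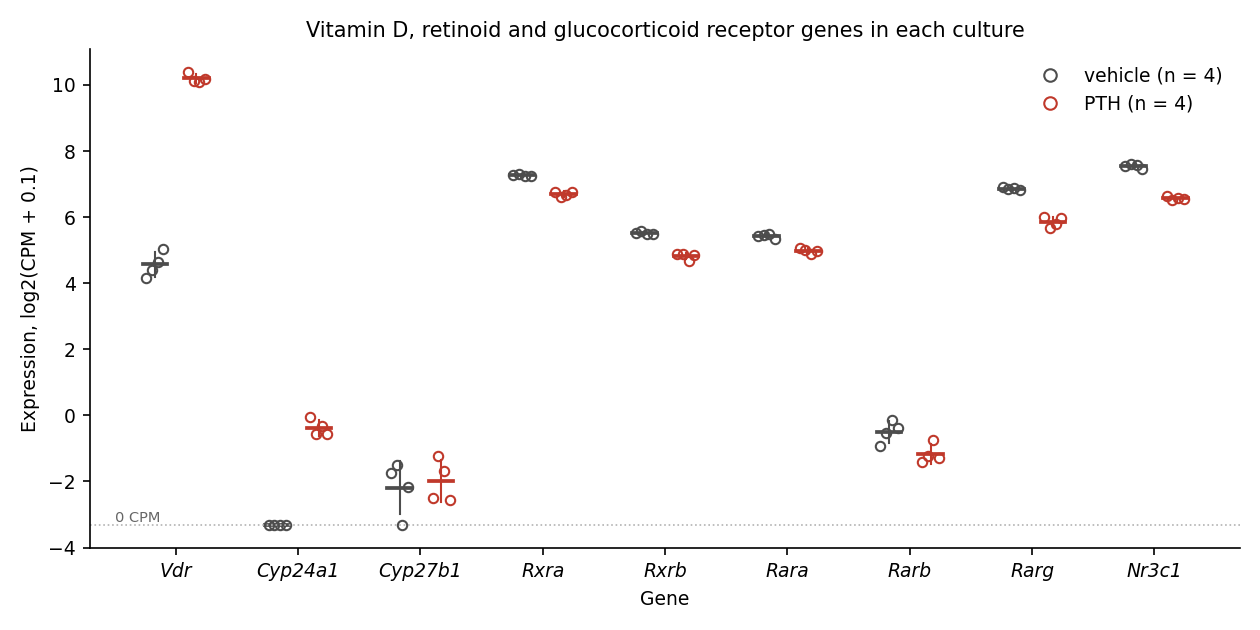
Expression of the 9 genes in each culture, as log2(CPM + 0.1), with vehicle in grey and PTH in red; each circle is 1 culture, the horizontal line is the mean and the vertical line is ± 1 SD (n = 4 per treatment). Vdr rises from between 17.9 and 32.8 CPM to between 1088 and 1347 CPM, Cyp24a1 leaves the dotted line at 0 CPM in all 4 PTH cultures, and the vehicle and PTH points of Cyp27b1 and Rarb overlap.

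Vdr (ENSMUSG00000022479, GENCODE M21 on GRCm38, chr15:97854425-97910630, minus strand) encodes the nuclear receptor for calcitriol. Its level was 17.9, 21.2, 25.0 and 32.8 CPM in the vehicle cultures 1 to 4 and 1347, 1108, 1088 and 1167 CPM in the PTH cultures 1 to 4. The lowest PTH culture was far above the highest vehicle culture, and the vehicle cultures themselves spread more widely, relative to their mean, than the PTH cultures did. The log2 fold change was 5.60 (SE 0.185, edgeR adjusted p = 2.71e-10), on 802 to 1628 counts per vehicle culture and 36822 to 69032 counts per PTH culture. By mean CPM, Vdr was 6807th of the 47592 gene symbols with vehicle and 66th with PTH. It was 51st of the 16736 tested genes by log2 fold change, 34th of the 14072 tested genes averaging 1 CPM or more, and 4th of all 47592 by the difference in CPM.

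The genes whose log2(CPM + 0.1) followed Vdr most closely over the 8 cultures were Aldh1a3, which encodes a retinaldehyde dehydrogenase that makes retinoic acid (Pearson r 0.9993), Jade2, which encodes a chromatin-associated protein (0.9992), and Tuba4a, which encodes an alpha-tubulin (0.9991). Jade2 was at 16.0 ± 1.08 CPM with vehicle and 81.1 ± 0.669 CPM with PTH (log2 fold change 2.34), and Tuba4a was at 4.06 ± 0.706 and 98.6 ± 6.35 CPM (4.60). These 8 points fall into the 2 treatments, and 321 of the 14059 genes compared had r over 0.99, so r does not set these 3 genes apart from the rest of those.

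Cyp24a1 (ENSMUSG00000038567, chr2:170482708-170497145, minus strand) encodes the hydroxylase that inactivates calcitriol and is the classical VDR target. It had 0 counts in all 4 vehicle cultures and 44, 19, 27 and 24 counts in PTH cultures 1 to 4, which is 0.858, 0.572, 0.705 and 0.571 CPM. Every PTH culture was thus above every vehicle culture, at a level below 1 CPM. Set against a floor of 3 counts in each vehicle culture, Cyp24a1 was at least 10.4-fold higher with PTH (edgeR adjusted p = 5.37e-05). Cyp24a1 passed the filter on low counts only through its PTH cultures, so its call is not separate support for the rise. Without that filter the edgeR adjusted p was 1.19e-04. The gene overlaps Pfdn4 on the opposite strand over 718 bases, and the strand setting of the counts is not given in the sources used here. Pfdn4 was at 13.4 ± 1.53 CPM with vehicle and 25.3 ± 5.01 CPM with PTH. The 519 to 691 counts of Pfdn4 per vehicle culture stood beside 0 counts of Cyp24a1 in the same cultures. Whether reads of Pfdn4 entered the Cyp24a1 counts with PTH was not tested.

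Cyp27b1 (chr10:127048250-127053006, plus strand) encodes the hydroxylase that makes calcitriol. It had 9, 11, 0 and 6 counts in vehicle cultures 1 to 4 and 4, 11, 8 and 3 counts in PTH cultures 1 to 4, and the 2 ranges overlapped. These counts did not pass the filter, so the gene was not in the edgeR test, and a difference was not detectable at this depth (exact two-sided permutation p = 0.743). The other hydroxylases that can start vitamin D activation were low as well. Cyp2r1, the main hepatic enzyme of the first step, was at 2.27 ± 0.275 CPM with vehicle and 1.69 ± 0.533 CPM with PTH (edgeR adjusted p = 0.196), and Cyp27a1, which also hydroxylates sterols, was at 2.83 ± 0.805 and 2.65 ± 0.365 CPM (adjusted p = 0.756).

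**Figure D2:**
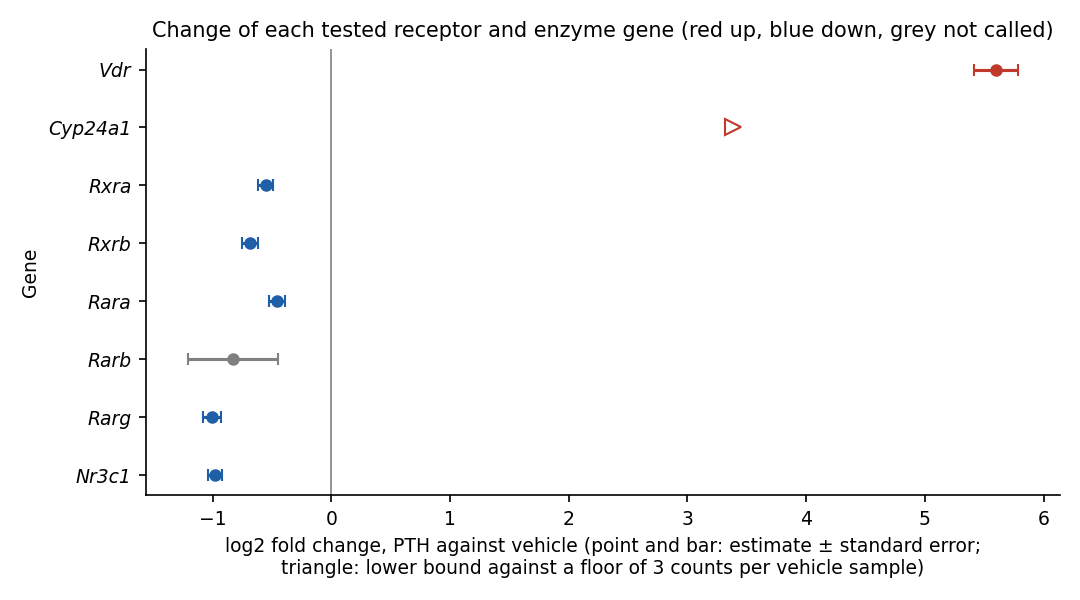
log2 fold change of the 8 tested genes, PTH against vehicle, with red for genes called up, blue for genes called down and grey for Rarb, which was not called; bars are ± 1 standard error and the open triangle for Cyp24a1 is a lower bound against 3 counts per vehicle culture. Vdr stands at 5.60, while the 5 genes called down lie between -1.0 and -0.46.

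The retinoid X receptors, the shared DNA-binding partners, both fell. Rxra (chr2:27676440-27762957, plus strand) was at 155, 157, 151 and 150.5 CPM with vehicle and 109, 96.8, 103 and 109 CPM with PTH, a mean change from 153 ± 2.95 to 104 ± 5.99 CPM. Its log2 fold change was -0.55 (SE 0.061, edgeR adjusted p = 1.54e-05). Rxrb (chr17:34031812-34038399, plus strand) was at 46.0, 47.5, 44.4 and 44.4 CPM with vehicle and 29.3, 29.5, 25.6 and 29.0 CPM with PTH. The log2 fold change of Rxrb was -0.68 (SE 0.069, edgeR adjusted p = 6.78e-06). For both genes the lowest vehicle culture was above the highest PTH culture, and PTH culture 3 was the lowest for Rxrb but not for Rxra. Rxrg, the isotype best known from muscle and brain, had 9 to 36 counts per vehicle culture and 8 to 22 per PTH culture (0.440 ± 0.230 and 0.288 ± 0.101 CPM, edgeR adjusted p = 0.335).

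The retinoic acid receptors did not all give the same call. Rarg (chr15:102234938-102257517, minus strand), the isotype most associated with skeletal and skin cells, was at 120.2, 114, 118 and 114 CPM with vehicle and 63.8, 50.8, 55.1 and 62.4 CPM with PTH. The mean went from 116 ± 3.10 to 58.0 ± 6.15 CPM, and the log2 fold change was -1.0 (SE 0.077, edgeR adjusted p = 5.76e-07). Rara (chr11:98927818-98974942, plus strand), the broadly expressed isotype, was at 43.4, 44.1, 45.3 and 40.5 CPM with vehicle and 33.3, 32.1, 29.4 and 31.3 CPM with PTH. It had a log2 fold change of -0.46 (SE 0.068, edgeR adjusted p = 1.68e-04), the smallest in size of the 5 genes called down, and its groups did not overlap. Rarb (chr14:16430839-16819156, minus strand), itself a classical retinoic acid target whose promoter is shown above, was at 0.424, 0.597, 0.814 and 0.665 CPM with vehicle and 0.273, 0.331, 0.496 and 0.309 CPM with PTH. These were 19 to 39 and 11 to 19 counts, vehicle culture 1 lay among the PTH cultures, and Rarb did not pass (log2 fold change -0.83, SE 0.38, edgeR adjusted p = 0.0952, exact permutation p = 0.0571). Rarb overlaps Top2b on the opposite strand over 4624 bases, and Top2b was at 179 ± 4.23 CPM with vehicle and 149 ± 5.28 CPM with PTH.

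Per kilobase of each gene's longest transcript, the summed level of the retinoic acid receptors was 52.4 ± 1.44 CPM per kilobase with vehicle and 29.1 ± 2.29 with PTH, and that of the retinoid X receptors was 48.8 ± 1.07 and 32.2 ± 1.48. Rarg made up 75.2% ± 0.788 of the retinoic acid receptor sum with vehicle and 67.5% ± 2.25 with PTH, and Rara made up 24.4% ± 0.743 and 32.1% ± 2.23. For both shares the 4 vehicle and the 4 PTH cultures did not overlap. Rarb was a minor part of the sum in every culture, at 0.384% ± 0.0993 with vehicle and 0.396% ± 0.132 with PTH. Among the retinoid X receptors, Rxra held 64.1% ± 0.221 with vehicle and 66.1% ± 1.91 with PTH, and the cultures overlapped. These shares are descriptions and depend on the transcript lengths used.

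**Figure D3:**
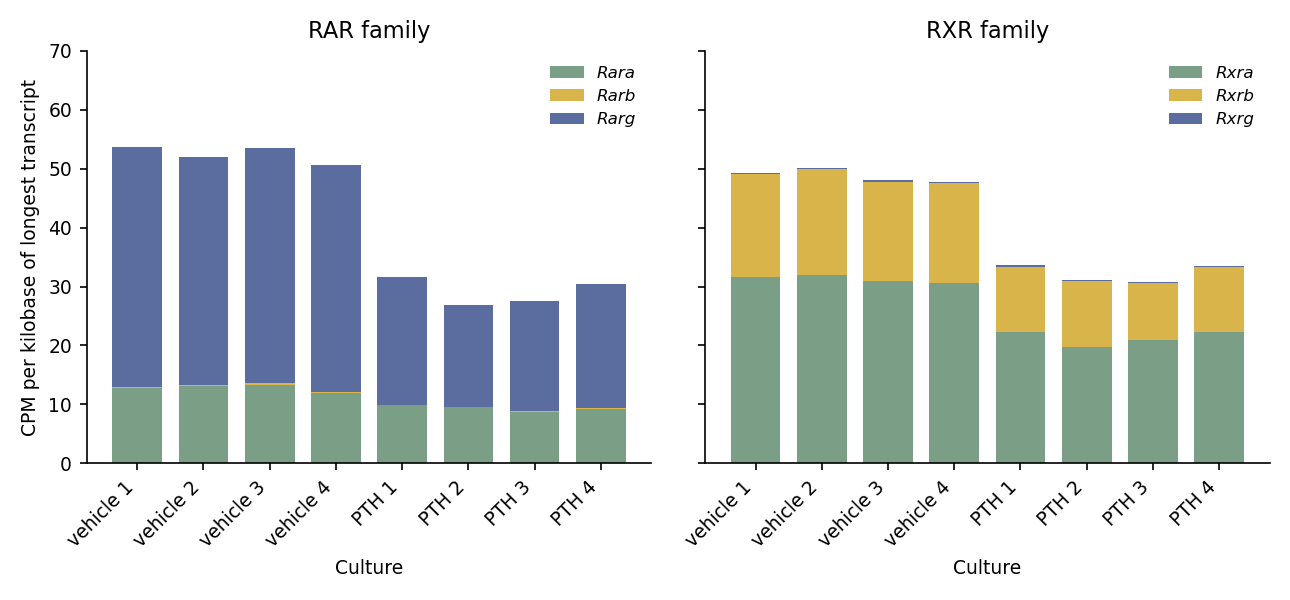
Level of the retinoic acid receptor genes (left) and the retinoid X receptor genes (right) in each culture, in CPM per kilobase of the longest transcript; each stacked bar is 1 culture and its segments are the genes of the family. The retinoic acid receptor sum lies between 50.6 and 53.7 in the vehicle cultures and between 26.8 and 31.5 in the PTH cultures, and most of the difference is in the Rarg segment.

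The order of the levels per kilobase changed with treatment. With vehicle it was Rarg (39.4 ± 1.05 CPM per kilobase), Rxra (31.3 ± 0.601), Nr3c1 (29.1 ± 1.15), Rxrb (17.3 ± 0.564), Rara (12.8 ± 0.600), Vdr (5.54 ± 1.47), Rarb (0.201 ± 0.0520), Cyp27b1 (0.0588 ± 0.0450) and Cyp24a1 (0), and only the last 2 neighbours overlapped across cultures. With PTH, Vdr came first (269 ± 27.0 CPM per kilobase), followed by Rxra (21.3 ± 1.22), Rarg (19.7 ± 2.08), Nr3c1 (14.7 ± 0.477), Rxrb (10.8 ± 0.704), Rara (9.32 ± 0.489), Cyp24a1 (0.190 ± 0.0384), Rarb (0.113 ± 0.0318) and Cyp27b1 (0.0705 ± 0.0505). Overlapping neighbours with PTH were Rxra and Rarg, Rxrb and Rara, and Rarb and Cyp27b1. With the merged length of all exons in place of the longest transcript, Rxra (28.1) stood above Rarg (27.3) with vehicle and overlapped it, and Rara (7.22) stood above Rxrb (7.14) with PTH. The level of Vdr was 0.114 ± 0.0323 times the summed level of the retinoid X receptors with vehicle and 8.35 ± 0.553 times that sum with PTH. These are transcript levels and say nothing of receptor protein.

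Nr3c1, the glucocorticoid receptor gene, was at 188, 194, 189.9 and 177 CPM with vehicle and 99.1, 92.4, 94.9 and 92.8 CPM with PTH. It thus fell from 187 ± 7.43 to 94.8 ± 3.07 CPM with no overlap, and the PTH cultures lay closer together than the vehicle cultures. The log2 fold change was -0.98 (SE 0.06, edgeR adjusted p = 7.04e-08). Of 26 genes listed for the glucocorticoid pathway and its targets, all tested, 10 rose and 4 fell, with a median log2 fold change of 0.01. Over all tested genes 23.3% were called up and 22.5% down. The counts of this list and of each list below are to be read against these shares. The metallothionein gene Mt2 rose from 5.61 ± 1.06 to 77.1 ± 14.6 CPM (log2 fold change 3.78), the MAP kinase phosphatase gene Dusp1 from 12.8 ± 0.889 to 149 ± 10.6 CPM (3.54), and Errfi1, which encodes an inhibitor of EGF receptor signaling, from 28.5 ± 2.05 to 235 ± 20.5 CPM (3.04). Tsc22d3, which encodes the glucocorticoid-induced leucine zipper protein, rose from 62.6 ± 4.36 to 99.2 ± 5.18 CPM (0.66, edgeR adjusted p = 8.71e-06). The genes called down were the transcription factor gene Klf15 (3.75 ± 0.705 to 0.523 ± 0.318 CPM, log2 fold change -2.79), the glucocorticoid-inactivating enzyme gene Hsd11b2 (-0.95), Fkbp5, a receptor co-chaperone gene (-0.43, edgeR adjusted p = 0.0225), and H6pd (-0.77), whose enzyme supplies the cofactor for glucocorticoid activation and which, like the other genes said to be outside the naming rule, was named after its values were seen. The call of Fkbp5 was lost without vehicle culture 3 or PTH culture 2 or 3. Hsd11b1, the enzyme gene of that activation, was at 6.07 ± 1.05 CPM with vehicle and 5.90 ± 0.715 CPM with PTH (adjusted p = 0.854). Members of this list gave calls in both directions, as the tested genes at large did. Dusp1, Per1 and Sgk1 are among the listed genes known to respond to cAMP as well.

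Around Vdr, a list of 15 genes for vitamin D uptake, hydroxylation, transport and VDR cofactors had 14 tested, with 3 up, 3 down and a median log2 fold change of -0.09. Lrp2, which encodes the endocytic receptor megalin, rose from 0.470 ± 0.0688 to 1.68 ± 0.457 CPM (log2 fold change 1.83, edgeR adjusted p = 4.60e-04), while Cubn, which encodes its partner cubilin, fell from 3.19 ± 0.528 to 1.94 ± 0.615 CPM (-0.71, adjusted p = 0.0408). The call of Cubn was lost, leaving 2 genes of the list called down, when vehicle culture 1, 2 or 4 or PTH culture 2 or 4 was left out. Among the cofactors, Med1, the Mediator subunit that contacts VDR, rose from 32.5 to 43.9 CPM (0.43) and Bag1, a chaperone regulator, rose from 96.0 to 129 CPM (0.42). Snw1, a coactivator and splicing factor gene, fell from 55.9 to 41.0 CPM (-0.45), and the chromatin remodeler gene Smarca4, outside the naming rule, fell by 0.19 on the log2 scale.

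Of 23 listed vitamin D target genes, 16 passed the filter, 6 were upregulated and 1 was downregulated, and the median was 0.05. Among those that did not pass, Trpv5, Pth and Slc34a1 had 0 counts in all 8 cultures. Fgf23, the phosphate-regulating hormone made by osteocytes and osteoblasts, had 0 counts in the 4 vehicle cultures and 86, 34, 58 and 69 counts in PTH cultures 1 to 4, at least 22.6-fold higher against 3 counts per vehicle culture (edgeR adjusted p = 9.15e-06). Like Cyp24a1, Fgf23 passed the filter only through its PTH cultures. Tnfsf11 rose 90.1-fold (log2 fold change 6.48, edgeR adjusted p = 4.28e-11), and PTH culture 1 held the highest level at 157 CPM. Thbd, which encodes the anticoagulant receptor thrombomodulin, rose from 196 ± 18.1 to 821 ± 133 CPM (2.06), and the other genes called up were the cell cycle inhibitors Cdkn1b (1.48) and Cdkn1a (0.78) and the calcium pump gene Atp2b1 (0.43), the last 3 outside the naming rule. Lrp5, a Wnt coreceptor gene, was the 1 gene called down (150.4 to 124 CPM, -0.28, edgeR adjusted p = 0.0293), its groups overlapped, and the call was lost when vehicle culture 1, 2 or 3 or PTH culture 2, 3 or 4 was left out. Spp1 and Bglap, listed genes of osteoblast matrix proteins, did not pass the edgeR test. Spp1, which encodes osteopontin, was at 515 ± 129 CPM with vehicle and 421 ± 49.6 CPM with PTH (adjusted p = 0.129). Bglap, which encodes osteocalcin, was at 252 ± 81.6 and 259 ± 48.4 CPM (adjusted p = 0.874). Trpv6, the intestinal calcium channel gene, had 2 to 9 counts per vehicle culture and 0 to 4 per PTH culture. The list was made of textbook targets, and several of them, Tnfsf11 among them, also respond to PTH by routes that do not pass through VDR.

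**Figure D4:**
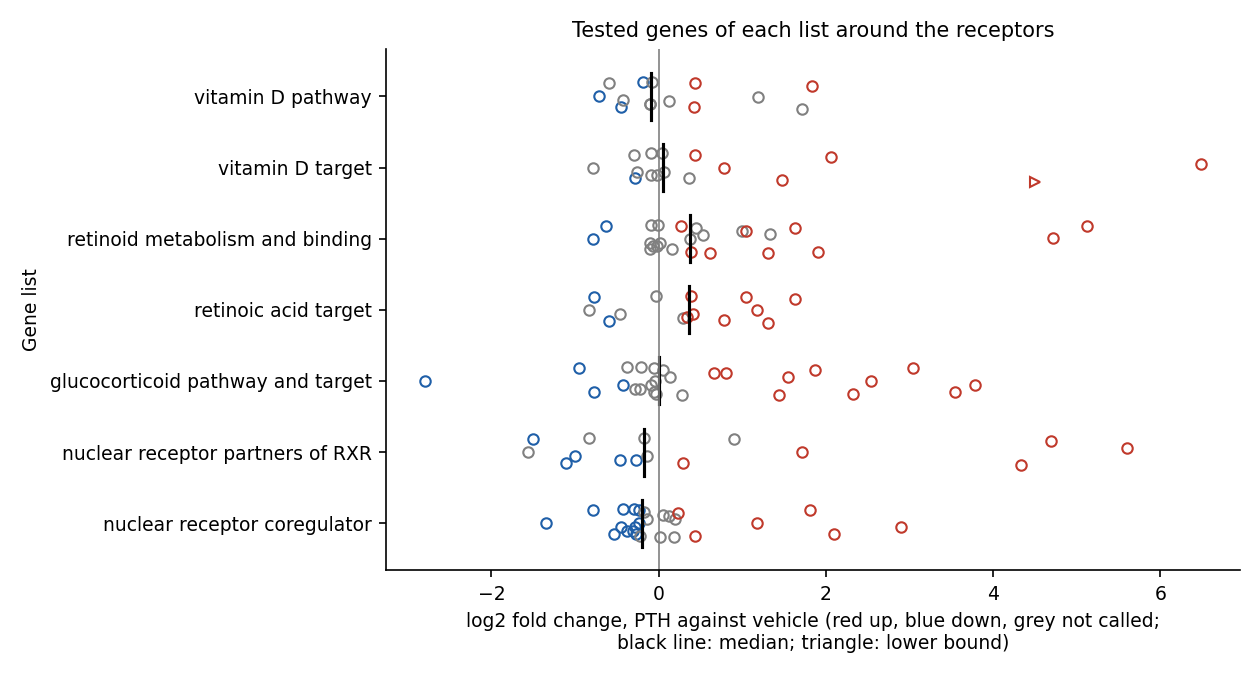
log2 fold change, PTH against vehicle, of each tested gene of the 7 lists, with red for genes called up, blue for genes called down, grey for genes not called, a black line at the median of the list, and a triangle for the lower bound of Fgf23. Tnfsf11 at 6.48 and Vdr at 5.60 stand farthest to the right, and the medians of the 7 lists lie between -0.20 and 0.38.

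On the retinoid side, the genes that make and break down retinoic acid held more upregulated than downregulated members, while Rxra, Rxrb, Rara and Rarg fell. Of 31 listed genes of retinoid metabolism and binding, 24 were tested, with 9 upregulated, 2 downregulated and a median log2 fold change of 0.38. Aldh1a3 was at 1.38, 1.58, 1.61 and 2.24 CPM with vehicle and 48.6, 39.0, 44.1 and 48.4 CPM with PTH. This is a 26.4-fold higher level (log2 fold change 4.72, SE 0.142, edgeR adjusted p = 1.30e-10), with no overlap between the groups. The other retinaldehyde dehydrogenase genes did not pass the test, with Aldh1a1 at 22.7 ± 2.12 and 21.6 ± 0.862 CPM (adjusted p = 0.512) and Aldh1a2 at 14.4 ± 1.03 and 14.5 ± 2.67 CPM (adjusted p = 0.921). Rdh10, which encodes the retinol dehydrogenase of the preceding step, was at 9.26, 9.09, 10.3 and 10.3 CPM with vehicle and 46.2, 34.1, 29.3 and 36.6 CPM with PTH (log2 fold change 1.91, edgeR adjusted p = 1.75e-07). Dhrs3, which encodes the reductase that runs this step backwards, also rose, from 26.7 ± 1.58 to 65.8 ± 5.89 CPM (1.30).

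Cyp26b1, the main retinoic acid hydroxylase gene in the developing skeleton, was at 61.6, 68.0, 63.2 and 58.5 CPM with vehicle and 193, 208, 189 and 192 CPM with PTH. No vehicle culture came near the lowest PTH culture, and the log2 fold change was 1.64 (SE 0.067, edgeR adjusted p = 1.96e-09). Cyp26a1, the hydroxylase gene that retinoic acid induces most directly in many cells, had 0 counts in the vehicle cultures and 0 to 8 in the PTH cultures and was not tested. Among the binding proteins, Crabp2, which carries retinoic acid to its nuclear receptors, rose from 8.27 ± 0.889 to 17.0 ± 2.35 CPM (1.04, edgeR adjusted p = 2.00e-05). Crabp1, its cytosolic relative, was at 39.4 ± 2.63 and 44.1 ± 0.658 CPM (adjusted p = 0.0623). The serum retinol carrier gene Rbp4 was at 3.65 ± 1.23 and 4.97 ± 0.697 CPM (adjusted p = 0.133), and the retinol transporter gene Stra6 had at most 11 counts in any culture. Dgat1, an acyltransferase gene that also acts in triglyceride synthesis, had the largest change of the list, from 14.3 ± 0.804 to 499 ± 117 CPM (5.12), with PTH culture 2 the highest at 671 CPM. The 2 genes called down encode dehydrogenases, Rdh14 (15.7 to 9.09 CPM, -0.79) and Adh1 (86.4 to 56.0 CPM, -0.63).

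**Figure D5:**
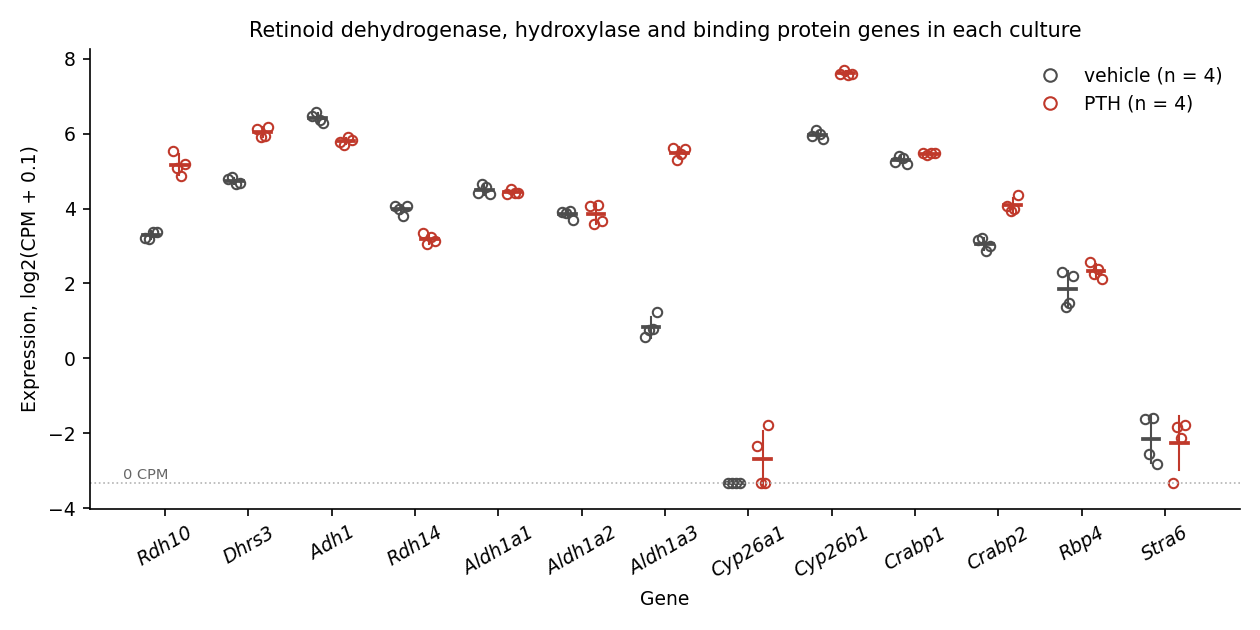
Expression of 13 genes of retinoid metabolism and binding in each culture, as log2(CPM + 0.1), with vehicle in grey and PTH in red; each circle is 1 culture, the horizontal line is the mean and the vertical line is ± 1 SD (n = 4 per treatment). Rdh10, Dhrs3, Aldh1a3, Cyp26b1 and Crabp2 lie higher with PTH, Adh1 and Rdh14 lie lower, and the points of Aldh1a1 and Aldh1a2 overlap.

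Of 20 listed retinoic acid target genes, 14 were tested, 8 were upregulated and 2 were downregulated, with a median of 0.36. Cyp26b1, Dhrs3 and Crabp2 are among those also in the metabolism list and Rarb is one of the receptors described above, so the lists are not separate evidence. Nrip1, a ligand-dependent corepressor gene, rose from 30.3 ± 2.70 to 68.7 ± 6.69 CPM (log2 fold change 1.18, edgeR adjusted p = 4.28e-07). Pdk4, which encodes a kinase that restrains pyruvate oxidation, fell from 12.4 ± 1.76 to 7.26 ± 1.06 CPM (-0.77), and the homeobox gene Meis1 fell from 20.8 ± 1.63 to 13.8 ± 0.813 CPM (-0.59).

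The other nuclear receptors that pair with RXR moved in both directions, as the tested genes at large did. Of 16 listed partners, which include Vdr, Rara, Rarb and Rarg, 15 were tested, 5 were upregulated and 5 were downregulated, with a median of -0.17. After Vdr, the largest increases were those of the orphan receptor genes Nr4a2 (17.0 ± 3.66 to 437 ± 38.2 CPM, 4.69) and Nr4a1 (12.3 ± 1.20 to 247 ± 21.2 CPM, 4.33), both known as early genes of cAMP signaling. Ppard (1.71) and Nr1h2 (0.29), outside the naming rule, were the others called up. Pparg, the adipogenic fatty acid receptor, fell from 16.0 ± 1.42 to 5.67 ± 0.573 CPM (-1.50) and Ppara fell from 1.29 ± 0.288 to 0.596 ± 0.250 CPM (-1.11). For Ppara the groups overlapped (edgeR adjusted p = 0.0236, exact two-sided permutation p = 0.0571), and without vehicle culture 2, vehicle culture 3 or PTH culture 4 its call was lost and 4 partners were called down. The third partner called down besides Rarg and Rara was Thra, outside the naming rule, at -0.27. Per kilobase, Vdr was 10th of the 21 genes formed by these partners and the 9 genes with vehicle, where Thra came first (87.5 ± 6.78 CPM per kilobase), and 1st with PTH, ahead of Nr4a2 (123 ± 10.7) and Nr4a1 (96.9 ± 8.32).

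Among 26 genes for nuclear receptor coregulators, all tested, 6 were upregulated and 12 were downregulated, with a median of -0.20. The p160 coactivator genes Ncoa1 (-0.23), Ncoa2 (-0.27) and Ncoa3 (-0.28) fell by small amounts (edgeR adjusted p = 0.0208, 0.0104 and 0.00359), and the call of Ncoa1 was lost without vehicle culture 2 or PTH culture 2 or 3. The corepressor gene Ncor1 fell from 161 ± 4.76 to 137 ± 1.30 CPM (-0.23, adjusted p = 0.00491). The largest increases were those of Ppargc1b (2.89) and Ppargc1a (2.09), coactivators of oxidative metabolism, at 5.35 ± 0.941 and 13.4 ± 0.487 CPM with PTH. Tbl1xr1, an exchange factor of the corepressor complex, fell from 118 ± 5.99 to 46.3 ± 2.59 CPM (-1.35), and Sin3a, a corepressor scaffold gene, fell by 0.79 on the log2 scale.

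Markers of the cell types the cultures could hold were examined beside these results. All 10 osteoblast markers were tested, none was upregulated and 3, Sp7 (-1.78), Dmp1 (-1.12) and Runx2 (-0.33), were downregulated, and their summed level was 76506 to 87385 CPM with vehicle and 73097 to 105735 CPM with PTH. Adipocyte markers summed to 24.6 to 40.8 CPM with vehicle and 29.2 to 49.0 CPM with PTH, with none of the 6 tested called. Of 10 macrophage markers, 2 were called up, Tyrobp (0.86) and Lyz2 (0.63), none was called down, and the sum was 1078 to 1750 CPM with vehicle and 1683 to 2168 CPM with PTH. Their median log2 fold change was 0.31, and the part of macrophages in the levels above was not tested. Chondrocyte markers gave 2 of 4 tested genes called up, Acan (1.03) and Col2a1 (0.44), with sums of 409 to 463 and 479 to 606 CPM. Endothelial markers summed to at most 6.97 CPM in any culture with Emcn at 0 in all, and 1 of the 4 tested was called in each direction, Kdr (1.51) and Tek (-0.49, a call lost without vehicle culture 3 or PTH culture 3). Of the muscle markers, 2 were tested and none was called, with sums of 14.0 to 17.9 CPM with vehicle and 11.8 to 16.5 CPM with PTH, and of the keratinocyte markers 1 was tested and called up, Krt10 (0.72), with sums of 2.40 to 3.51 and 4.30 to 6.02 CPM and Krt14 at 0 in all.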

How the data were processed

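RNA sequencing counts of 4 vehicle-treated and 4 PTH-treated cultures were analysed, with groups taken from the sample labels. Per the study's methods, poly(A) libraries were read as pairs of 150 bases, and per the labels' processing notes the reads were aligned to mm10 with HISAT2 and assembled with StringTie. The authors deposited whole-number counts per gene and sample, not normalized between samples. The annotation version, strand setting and read length used in counting are not given in the sources used here.

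The 9 genes and the gene lists were chosen with earlier results of these data known. Counts were compared with edgeR 4.0.16 in R 4.3.3 (TMM normalization, filterByExpr at min.count 10 and min.total.count 15, two-sided quasi-likelihood F-test, Benjamini-Hochberg adjustment over 16736 genes, threshold 0.05). Where rows shared a symbol, the row with most counts on average was used. Exact permutation tests used SciPy 1.17.1, and positions and lengths come from GENCODE M21. The labels do not say whether samples are separate isolations of cells. The p-values set the difference between treatments against the spread of these samples within each treatment. Whether that spread covers separate isolations or animals is not known. Bounds use a floor of 3 counts per library and cover counting error only. Total counts were at least 33605610 per sample. Cyp27b1 did not pass the filter and was tested by the exact permutation test and in the alternatives without that filter.

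The rule named all 9 genes, the 3 largest increases and 2 largest decreases among called genes of each list, a set of single genes, and the 3 genes most correlated with Vdr among those with a mean of at least 1 CPM. A few genes that the rule names are not reported here. On simulated counts with 200 changed genes among 16736, edgeR recovered 170 with 5 false calls and DESeq2 1.42.0 recovered 177 with 24. In the data 45.8% of the tested genes were called, so these figures do not give the recovery or false calls of the comparison itself. Alternatives were DESeq2, its size factors in edgeR, no filter, the sample number as a block, each sample left out, halved counts, counts summed by symbol, TMM without the 10 most abundant genes, and, added after the data were seen, merged exon lengths. All 8 samples entered the main comparison.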

Additional observations from a re-analysis of the deposited data

Results flagged for a closer look

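Among 125 sets of 4 cultures (64 genes named in the text), 10 had a highest or lowest culture set far apart from the other 3, by a gap that chance gives in about 1 of 20 such sets. One of the 9 genes was among them: Rxrb was at 25.6 CPM in PTH culture 3 against 29.0 to 29.5 CPM in the other PTH cultures, which is farther from the vehicle level. PTH culture 1 stood apart for Tnfsf11 (157 CPM, others 115 to 120.2), Mt2 (98.7 CPM, others 67.1 to 71.4) and Klf15 (0.995 CPM, others 0.301 to 0.418). PTH culture 2 stood apart for Cyp27a1 (3.19 CPM, others 2.42 to 2.53) and for Trpv6 (0.1204 CPM, from 4 counts, others 0). Vehicle culture 4 stood apart for Pdk4 (15.04 CPM, others 11.3 to 11.7) and Tbl1xr1 (109 CPM, others 119.7 to 122). Vehicle culture 3 was lowest for Dusp1 (11.5 CPM, others 13.3), and vehicle culture 2 was lowest for Cyp2r1 (1.86 CPM, others 2.39 to 2.44). The cause was not tested for any of these.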

How the results depend on the processing

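In each of the 15 refits, Vdr and Cyp24a1 were called up and Rxra, Rxrb, Rara, Rarg and Nr3c1 were called down. Cyp24a1 had 0 counts in every vehicle culture and passes the filter only through its PTH cultures. Its repeated calls are therefore not separate support for its rise. Rarb was called in none (log2 fold change -1.04 to -0.68, edgeR or DESeq2 adjusted p 0.0730 to 0.238), and Cyp27b1, which entered 2 of them, was at 0.20 without the filter (adjusted p = 0.909) and 0.24 with DESeq2 (adjusted p = 0.890). Of 411 recomputed values, 397 kept their direction and their side of the threshold or stayed within the limits set for a count or share. The count of vitamin D target genes called down was 0 to 1 with 1 sample left out, and was 0 without vehicle culture 1, 2 or 3 or PTH culture 2, 3 or 4. With merged exon lengths, the shares of the retinoic acid receptor sum were 26.5% (vehicle) and 34.6% (PTH) for Rara and 73.1% and 65.0% for Rarg, and those of the retinoid X receptor sum were 70.7% and 72.5% for Rxra and 28.8% and 27.1% for Rxrb, by the construction of that alternative. Same-numbered samples did not deviate together (correlations of -0.041 to 0.027 across genes), so no pairing by number was detected. This check cannot show whether same-numbered samples came from one isolation of cells. With the replicate number as a block, 3571 genes were called up and 3432 down, and the 9 genes kept 2 up and 5 down. With 1 sample left out, 3412 to 4119 genes were called up and 3259 to 3955 down. Cyp27b1, Cyp24a1 and Rarb rest on the lowest depth of the 9 genes, with at most 44 counts in any culture.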
